A study of Mus musculus with 18 samples.

Results

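Hoxb1, Hoxd1, Hoxa2 and Hoxb2 are genes of Hox paralogue groups 1 and 2, the groups that lie at the 3′ end of the Hox clusters. They were taken by gene symbol through their Ensembl identifiers and are 4 of the 53465 gene identifiers in the deposited expression table. The 4 genes are described in 18 RNA sequencing libraries from 9 mouse embryos at embryonic day 9 with 20 to 24 somites. Per the labels, 4 embryos were double mutants (DKO) in which Meis1 and Meis2 were both conditionally deleted with Delta1Cre, a Cre recombinase driven by the Delta1 (Dll1) gene, and 5 were controls, for which no further genotype is given. Each embryo gave a posterior piece, which is the axial bud with its most recently formed somites, and an anterior piece, which is the remainder of the somite-bearing axis. Head tissue rostral to the somites was not included. This gave 5 anterior control, 4 anterior DKO, 5 posterior control and 4 posterior DKO libraries. The stated aim was to find targets of Meis that act in patterning the skeleton along the axis.

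Hox genes encode homeodomain transcription factors that give cells their position along the body axis. Within a cluster, genes nearer the 3′ end are activated earlier and reach further towards the head, and group 1 is the first to be switched on, in the posterior part of the gastrulating embryo. Groups 1 and 2 are best known for the hindbrain. There Hoxb1 specifies the fourth rhombomere, Hoxa2 reaches furthest rostrally and patterns the neural crest of the second pharyngeal arch, and Hoxb2 is a target of both Egr2 and Hoxb1. Hoxd1 is the group 1 gene of the HoxD cluster. Hox proteins of these groups bind DNA together with the TALE homeodomain proteins Pbx and Meis, and retinoic acid activates several 3′ Hox genes through response elements near them.

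On build GRCm38, Hoxb1 (ENSMUSG00000018973) lies at chr11:96365752-96368256 on the plus strand and Hoxb2 (ENSMUSG00000075588) at chr11:96350525-96354012 on the same strand, with 11739 bp between them. Hoxd1 (ENSMUSG00000042448) lies at chr2:74762980-74765142 on the plus strand and Hoxa2 (ENSMUSG00000014704) at chr6:52162417-52164831 on the minus strand. The coding transcript of each gene has 2 exons. A same-strand gene model, Gm28308, shares 267 bp of exon with Hoxa2, and the antisense gene Hoxb3os shares 953 bp of exon with Hoxb2. Gm28308 had 0 to 0.836 CPM (counts per megacount of the library, with TMM scaling between libraries, which uses a trimmed mean of log ratios) and Hoxb3os 21.2 to 37.9 CPM. The use of strand in counting is not given in the sources used here, so reads of Hoxb2 and Hoxb3os may not have been told apart.

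The promoters are shown because the deleted factors bind DNA with Hox and Pbx proteins at short motifs, and the windows show where such letters occur beside these genes. RefSeq promoter windows (build GRCm38.p6, 250 bases before to 50 bases after the gene start, 5′ to 3′ on the gene's strand) were matched for 3 of the 4 genes: Hoxb1 at chr11:96365508-96365807 (plus strand), Hoxd1 at chr2:74762730-74763029 (plus strand) and Hoxa2 at chr6:52164782-52165081 (minus strand). Hoxb2 is named only. Capitals mark matches, on either strand, to the Meis half-site TGACAG or to the Pbx-Hox motif TGATNNAT.
Hoxb1: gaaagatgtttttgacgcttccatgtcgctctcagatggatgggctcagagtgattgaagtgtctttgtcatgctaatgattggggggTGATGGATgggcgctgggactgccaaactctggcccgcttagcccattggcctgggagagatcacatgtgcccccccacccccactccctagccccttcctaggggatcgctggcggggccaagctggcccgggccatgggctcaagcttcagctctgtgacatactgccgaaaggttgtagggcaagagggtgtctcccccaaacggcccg
Hoxd1: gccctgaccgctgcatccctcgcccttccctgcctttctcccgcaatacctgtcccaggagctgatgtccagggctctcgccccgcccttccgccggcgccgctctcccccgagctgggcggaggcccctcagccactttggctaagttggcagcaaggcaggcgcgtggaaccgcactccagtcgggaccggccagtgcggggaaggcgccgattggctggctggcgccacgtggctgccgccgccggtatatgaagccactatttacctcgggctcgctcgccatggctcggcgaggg
Hoxa2: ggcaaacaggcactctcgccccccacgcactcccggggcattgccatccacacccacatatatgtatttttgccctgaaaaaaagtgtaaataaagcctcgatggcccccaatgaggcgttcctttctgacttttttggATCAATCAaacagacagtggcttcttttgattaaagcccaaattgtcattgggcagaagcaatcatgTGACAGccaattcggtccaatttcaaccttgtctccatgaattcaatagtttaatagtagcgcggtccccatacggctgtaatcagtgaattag
Positions are counted from the RefSeq start that places each window, taken as 0, which for Hoxb1 is not the GENCODE start given above. The Hoxb1 window holds 1 Pbx-Hox match, TGATGGAT, at -162 to -155. The Hoxa2 window holds TGACAG at -44 to -39 and a Pbx-Hox match on the opposite strand, read as ATCAATCA on the gene's strand, at -111 to -104. The Hoxd1 window holds neither set of letters. The 2 motifs do not overlap each other in these windows. TGACAG occurs in 19.2% and TGATNNAT in 8.85% of the 32851 RefSeq windows of this length, so that a match describes the sequence and does not show a bound site.

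The libraries held 12.7 to 38.2 megacounts of expected counts, and 3 counts, the floor used here, corresponded to 0.0791 to 0.233 CPM. Meis1 and Meis2 were not lost from the DKO libraries. Their summed level was 297 to 333 CPM in anterior controls against 220 to 268 CPM in anterior DKO, and 177 to 250.6 CPM in posterior controls against 140 to 188 CPM in posterior DKO. The log2 difference of DKO from control was -0.41 for Meis2 in anterior pieces (edgeR quasi-likelihood test, adjusted p = 0.0522) and -0.52 in posterior ones (adjusted p = 0.196). It was -0.30 (adjusted p = 0.123) and -0.55 (adjusted p = 0.336) for Meis1, and none passed the threshold of 0.05. Counts per gene do not show which exons the reads covered, and the pieces hold cells in which Delta1Cre need not act. Control embryo 1 carries a female label, yet its pieces had at most 0.340 CPM of Xist and summed Y-linked levels of 151 to 162 CPM, as the libraries labelled male did (126 to 175 CPM), so the label and the data disagree for that embryo. For the 4 Hox genes, the differences between regions in controls, between DKO and control, and of the interaction are therefore also given without it.

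The pieces matched their labels by the marker genes of the axial bud (T, Wnt3a, Fgf8, Nkx1-2, Tbx6, Msgn1, Cdx4 and Hes7). Their summed level was 21.8 to 36.5 CPM in the 9 anterior and 266 to 507 CPM in the 9 posterior libraries. Cdx4, a caudal homeobox gene, had at most 0.310 CPM in anterior and 50.1 to 132 CPM in posterior libraries. Msgn1, a gene of presomitic mesoderm, had at most 2 counts in any anterior library and 10.6 to 27.6 CPM in posterior ones. The head was absent by the brain markers: Otx2 had at most 1 count and Egr2, which marks a pair of rhombomeres of the hindbrain, at most 9 counts in any library. The levels of Hoxb1, Hoxa2 and Hoxb2 reported here therefore come from libraries in which this rhombomere marker was near its floor. Whole pieces were sequenced, so fewer cells expressing a gene and less RNA per cell cannot be told apart.

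**Figure D1:**
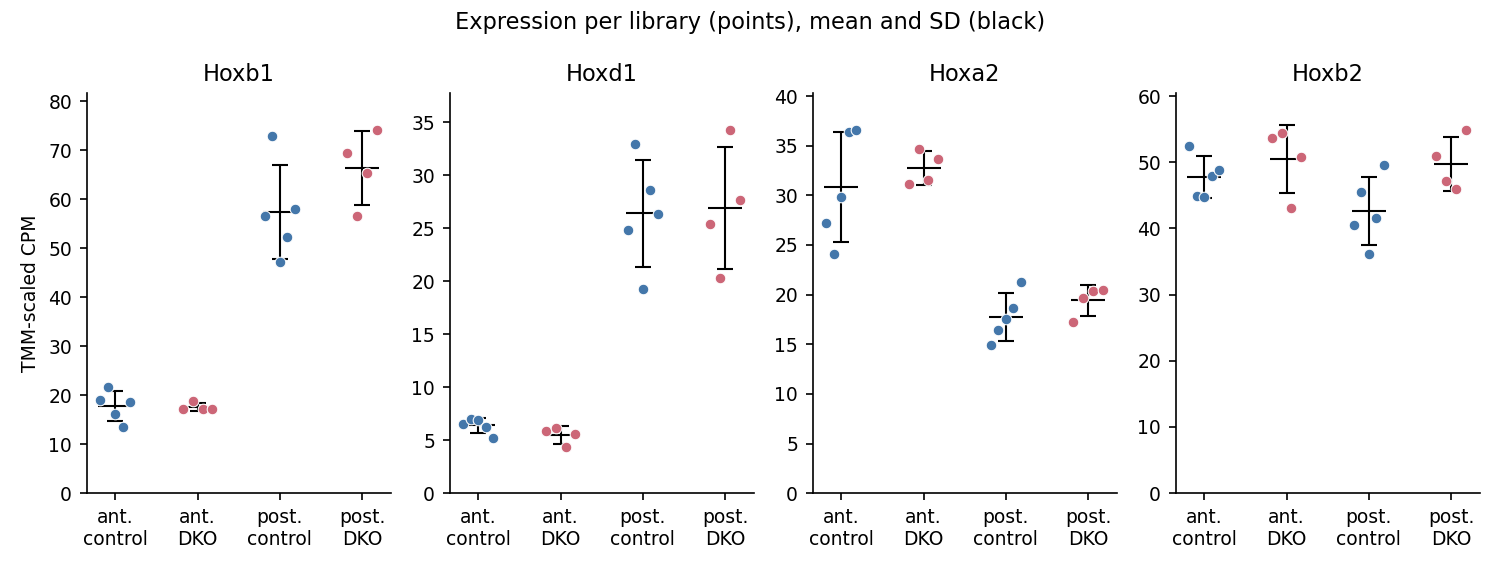
Expression of Hoxb1, Hoxd1, Hoxa2 and Hoxb2 (y axis, TMM-scaled CPM, each panel on its own scale from 0) in the anterior and posterior pieces of control (blue) and DKO (red) embryos. Points are libraries and black marks are the mean ± SD (n = 5 controls, n = 4 DKO): Hoxb1 and Hoxd1 sit higher in posterior pieces, Hoxa2 sits lower, and control and DKO points overlap in every panel.

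The first comparison asked how the 4 genes are distributed along the axis of control embryos. The group 1 genes Hoxb1 and Hoxd1 were higher in the posterior piece, the group 2 gene Hoxa2 was lower there, and Hoxb2 did not pass the test. Of the 15294 genes tested, 25.4% had an adjusted p below 0.05 (12.1% with a higher and 13.3% with a lower posterior level), and 3 of the 4 Hox genes did, 2 higher and 1 lower.

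Hoxb1, known for early expression in the posterior embryo, had 19.0, 21.8, 16.2, 13.5 and 18.7 CPM in anterior controls 1 to 5 and 56.6, 73.0, 47.2, 52.2 and 58.1 CPM in posterior controls 1 to 5. The lowest posterior library was above the highest anterior one. The means were 17.8 ± 3.12 CPM (SD, n = 5) and 57.4 ± 9.67 CPM (n = 5), a difference of 1.68 on the log2 scale (SE 0.135, 95% interval 1.39 to 1.98), or 3.21-fold (edgeR, adjusted p = 2.11e-06).

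Hoxd1 was the least expressed of the 4 genes in the anterior pieces and had the larger fitted difference of the group 1 pair, with overlapping intervals. Anterior controls 1 to 5 had 6.57, 7.01, 6.92, 6.27 and 5.18 CPM, and posterior controls had 24.8, 33.0, 19.3, 28.7 and 26.4 CPM. The groups did not overlap. The means were 6.39 ± 0.737 CPM (SD, n = 5) and 26.4 ± 5.03 CPM (n = 5), a difference of 2.05 on the log2 scale (SE 0.139, 95% interval 1.74 to 2.35), or 4.13-fold (edgeR, adjusted p = 5.71e-07).

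Hoxa2 ran the other way. It had 27.2, 24.1, 29.9, 36.4 and 36.6 CPM in anterior controls 1 to 5 and 14.9, 16.4, 17.5, 18.7 and 21.3 CPM in posterior controls, with no overlap. The means were 30.8 ± 5.55 CPM (SD, n = 5) and 17.8 ± 2.41 CPM (n = 5), a difference of -0.80 on the log2 scale (SE 0.129, 95% interval -1.08 to -0.52), or 1.74-fold lower posteriorly (edgeR, adjusted p = 0.000574). For groups without overlap the background was 20.1% of all genes tested, 9.44% higher and 10.7% lower.

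Hoxb2, the cluster neighbour of Hoxb1, did not pass the test. Anterior controls 1 to 5 had 52.5, 45.0, 44.8, 48.0 and 48.8 CPM, and posterior controls had 40.5, 45.5, 36.1, 41.6 and 49.7 CPM. The ranges overlapped, and the fitted difference was -0.16 on the log2 scale (SE 0.0793, 95% interval -0.34 to 0.01, edgeR, adjusted p = 0.162). With all counts of Hoxb3os added to those of Hoxb2, the difference was -0.20 and passed the threshold (edgeR, adjusted p = 0.0297). This sum also takes in reads from outside the 953 bp of shared exon, which counting without regard to strand would not give to Hoxb2. It therefore does not show what the call for Hoxb2 would be under such counting.

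Without control embryo 1, the log2 differences were 1.71 for Hoxb1, 2.08 for Hoxd1, -0.78 for Hoxa2 and -0.11 for Hoxb2, with the same calls (adjusted p = 7.16e-05, 2.61e-05, 0.00322 and 0.478 in that order, edgeR).

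The same comparison was made separately in the DKO embryos, where 18.5% of 15777 genes were called (8.76% as higher and 9.7% as lower in the posterior piece). Hoxb1 and Hoxd1 passed it as higher and Hoxa2 as lower in the posterior piece. Hoxb1 had 17.1, 18.8, 17.2 and 17.3 CPM in anterior DKO 1 to 4 and 69.4, 56.6, 65.4 and 74.2 CPM in posterior DKO, a log2 difference of 1.92 (SE 0.0887, 95% interval 1.72 to 2.12), or 3.78-fold (edgeR, adjusted p = 8.11e-07). Hoxd1 had 5.83, 6.18, 4.33 and 5.60 CPM in anterior DKO and 25.4, 20.3, 34.3 and 27.7 CPM in posterior DKO, a log2 difference of 2.29 (SE 0.174, 95% interval 1.90 to 2.68), or 4.89-fold (adjusted p = 1.57e-05). Both group 1 genes again had every posterior value above every anterior one. Hoxa2 had 31.1, 34.6, 31.5 and 33.7 CPM in anterior DKO and 17.2, 19.6, 20.4 and 20.5 CPM in posterior DKO, a log2 difference of -0.75 (SE 0.0837, 95% interval -0.94 to -0.57), or 1.68-fold lower (adjusted p = 0.000163). The Hoxa2 groups did not overlap either, which held for 23.6% of the genes tested (10.9% higher, 12.7% lower). Hoxb2 had 53.6, 54.4, 43.1 and 50.9 CPM in anterior DKO and 51.0, 47.1, 46.0 and 54.9 CPM in posterior DKO, with overlap and a log2 difference of -0.02 (SE 0.0873, 95% interval -0.21 to 0.17, adjusted p = 0.919).

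The 2 pieces of an embryo could be matched by genotype, sex label and somite number, which shows the pattern embryo by embryo. Hoxb1 was higher in the posterior piece of 9 of 9 embryos, with posterior to anterior ratios of 2.92 to 3.86 in controls and 3.0 to 4.29 in DKO. Hoxd1 was higher in 9 of 9, with ratios of 2.78 to 5.09 in controls and 3.29 to 7.92 in DKO, the widest spread among the 4 genes. Hoxa2 was lower in 9 of 9, with ratios of 0.513 to 0.680 in controls and 0.553 to 0.647 in DKO. Hoxb2 was lower in 3 of 5 controls and 2 of 4 DKO, with ratios of 0.773 to 1.02 and 0.867 to 1.1. The ratio of Hoxb1 to Hoxb2 within a library was higher in posterior pieces. In CPM, which is not adjusted for length, it was 0.282 to 0.484 in anterior and 1.17 to 1.60 in posterior controls, and 0.319 to 0.398 and 1.20 to 1.42 in DKO.

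**Figure D2:**
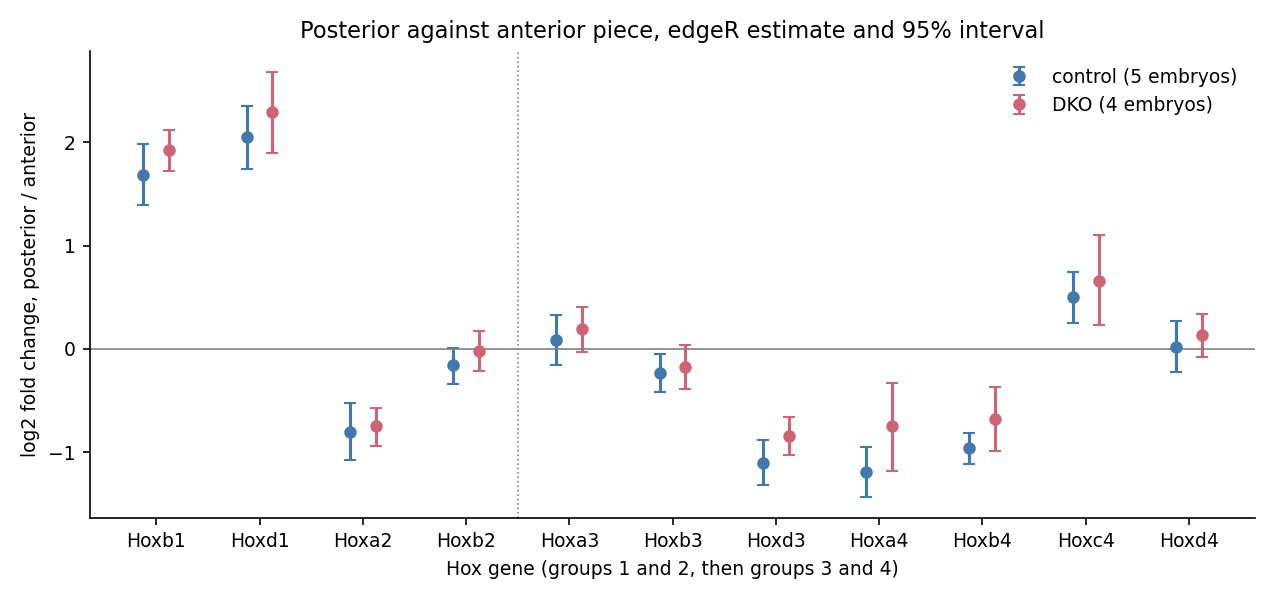
Log2 fold change of posterior against anterior pieces (y axis; values above 0 are higher posteriorly) for the Hox genes of groups 1 and 2 and, right of the dotted line, groups 3 and 4, in 5 control (blue) and 4 DKO (red) embryos. Points are edgeR estimates and bars 95% intervals: the group 1 genes lie at 1.68 to 2.29, Hoxa2 at -0.80 and -0.75, and Hoxb2 near 0.

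Markers of other tissues also differed between the pieces. All 8 neural tube markers were lower posteriorly in controls and in DKO (median log2 difference -0.73 in both, against medians over all genes of -0.01 and 0.01), with a summed level of 493 to 720 CPM in anterior and 265 to 409 CPM in posterior libraries. Of these, Dbx1, a gene of neural progenitors, fell most, by 3.06 in controls and by 2.57 in DKO (log2, edgeR, adjusted p = 8.79e-06 and 0.000275). All 8 axial bud markers were higher posteriorly in both genotypes. Of 6 neural crest markers, 3 in controls and 4 in DKO were lower posteriorly and none higher. Ectoderm markers went the other way, with 3 of 4 in controls and 4 of 4 in DKO higher posteriorly and none lower (medians 1.01 and 1.25). Of 6 gut endoderm markers, 3 were higher and 1 lower in each genotype. Of the 6 pharyngeal arch markers, 3 were higher and 2 lower in controls, and 3 higher and 1 lower in DKO, where 5 were tested. Of the lateral and heart mesoderm markers, 2 of 5 tested were higher and 1 lower in controls, and 1 of 4 higher and 1 lower in DKO. The lower one was Tbx5, a limb field and heart gene, which fell by 3.13 in controls and by 3.35 in DKO (adjusted p = 0.00764 and 0.00215). Of 8 somite and paraxial mesoderm markers, 4 were higher and 4 lower in controls, and 2 and 1 in DKO. Of the 4 hindbrain and brain markers tested of 8, 3 were higher and 1 lower in controls, and 2 and 1 in DKO. Those higher in controls were En2, Emx2 and Pax8, of which Emx2 and Pax8 are also known from intermediate mesoderm. Endothelium had 1 of 4 markers lower in each genotype and blood had none called (lowest adjusted p = 0.0877 and 0.085, with 2 and 3 of 4 at an unadjusted p below 0.05). The part of tissue composition in the differences of Hoxb1, Hoxd1 and Hoxa2 was not tested.

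Levels of different genes were compared per kilobase of exon, using the union of annotated exons. In anterior controls the order was Hoxa2 (17.4 ± 3.13 CPM per kb, SD, n = 5), Hoxb2 (13.7 ± 0.902), Hoxb1 (7.67 ± 1.34) and Hoxd1 (3.43 ± 0.396), where Hoxa2 and Hoxb2 overlapped and the other neighbours did not. Anterior DKO had the same order, at 18.5 ± 0.962, 14.5 ± 1.47, 7.58 ± 0.357 and 2.95 ± 0.432 CPM per kb (n = 4), with no neighbours overlapping. In posterior pieces the group 1 genes came first. Posterior controls had Hoxb1 at 24.7 ± 4.16, Hoxd1 at 14.2 ± 2.70, Hoxb2 at 12.2 ± 1.47 and Hoxa2 at 10.0 ± 1.36 CPM per kb, and only Hoxb1 was separated from its neighbour. Posterior DKO had them at 28.6 ± 3.21, 14.5 ± 3.10, 14.3 ± 1.16 and 10.9 ± 0.864 CPM per kb, where Hoxd1 and Hoxb2 overlapped and the other neighbours did not. The place of Hoxb2 depends on the length used, because its union of exons is 3488 bp and its coding transcript 1628 bp. With coding transcripts Hoxb2 was first in anterior pieces (29.4 and 31.0 CPM per kb in controls and DKO) and second in posterior ones (26.2 and 30.6 CPM per kb). The order of the other 3 genes was the same with each length.

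The second comparison asked whether these genes differed between DKO and control embryos. None of the 4 passed the test in either region. In the anterior pieces 0.0394% of 15238 genes passed the threshold (6 genes), and in the posterior pieces 0.0126% of 15936 (2 genes), so few calls were made anywhere, and the intervals are the more informative values. At an unadjusted p of 0.05, 0 of the 4 genes passed in the anterior and 1, Hoxb2, in the posterior pieces, against 13% and 11% of all genes. DESeq2 called 0 of the 4 in either region.

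In anterior pieces, Hoxb1 averaged 17.8 ± 3.12 CPM in controls (SD, n = 5) and 17.6 ± 0.830 CPM in DKO (n = 4), a log2 difference of -0.02 with a 95% interval of -0.29 to 0.25 (edgeR, adjusted p = 0.960). Hoxd1 averaged 6.39 ± 0.737 and 5.49 ± 0.805 CPM, a difference of -0.22 (-0.52 to 0.08, adjusted p = 0.534). Hoxa2 averaged 30.8 ± 5.55 and 32.7 ± 1.71 CPM, a difference of 0.09 (-0.17 to 0.35, adjusted p = 0.798). For all 4 genes the DKO and control libraries overlapped, while 5.08% of all genes tested had no overlap. Hoxb2 averaged 47.8 ± 3.15 and 50.5 ± 5.14 CPM, a difference of 0.08 (-0.08 to 0.24, adjusted p = 0.690).

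In posterior pieces all 4 fitted differences were above 0. Hoxb1 averaged 57.4 ± 9.67 CPM in controls (SD, n = 5) and 66.4 ± 7.47 CPM in DKO (n = 4), a log2 difference of 0.21 (95% interval -0.05 to 0.47, edgeR, adjusted p = 0.507). Hoxd1 averaged 26.4 ± 5.03 and 26.9 ± 5.78 CPM, a difference of 0.02 (-0.35 to 0.39, adjusted p = 0.964). Hoxa2 averaged 17.8 ± 2.41 and 19.4 ± 1.53 CPM, a difference of 0.13 (-0.11 to 0.38, adjusted p = 0.632). The 4 genes had overlapping groups here too, and 4.27% of all genes tested had none. Hoxb2 averaged 42.7 ± 5.12 and 49.8 ± 4.04 CPM, and its difference of 0.22 was the only one whose interval left out 0 (0.02 to 0.43, unadjusted p = 0.0369), but it did not pass after adjustment (adjusted p = 0.451). The lowest posterior DKO value of Hoxb2, 46.0 CPM, lay below the highest control value, 49.7 CPM.

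**Figure D3:**
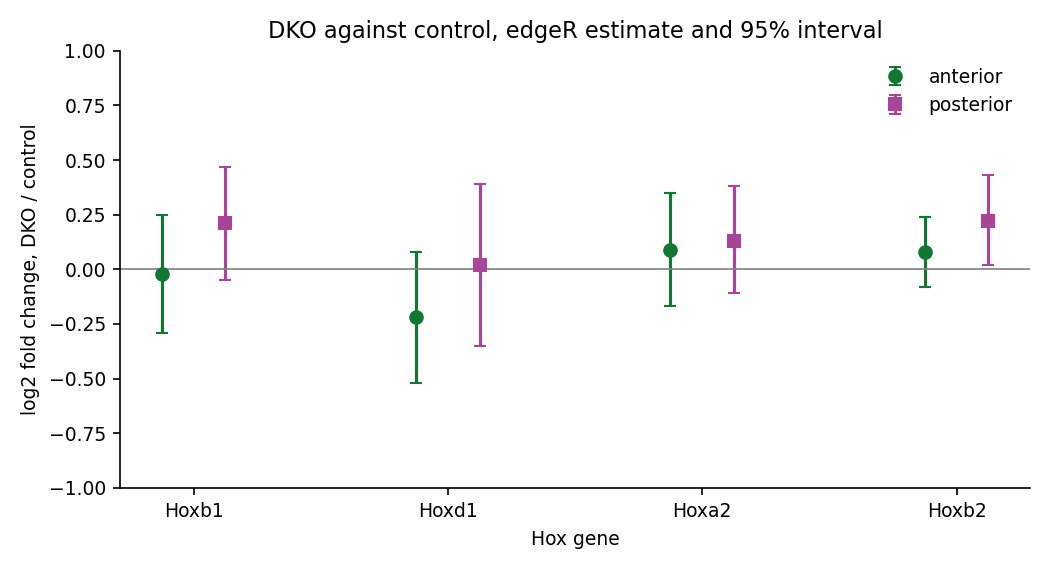
Log2 fold change of DKO against control (y axis; values above 0 are higher in DKO) for the 4 Hox genes in anterior (green circles) and posterior (purple squares) pieces. Points are edgeR estimates and bars 95% intervals, with 5 control and 4 DKO embryos in each region: the estimates lie between -0.22 and 0.22, and only the interval of posterior Hoxb2 leaves out 0.

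The interval for anterior Hoxd1 reached down to -0.52 and that for posterior Hoxb1 up to 0.47, so the intervals leave in changes of up to that size. Single embryos moved these small estimates: leaving out each embryo in turn gave -0.28 to -0.13 for anterior Hoxd1 (-0.13 without DKO embryo 3) and 0.14 to 0.31 for posterior Hoxb1 (0.14 without DKO embryo 4). It gave 0.01 to 0.16 for anterior Hoxa2 (0.01 without control embryo 2), 0.07 to 0.20 for posterior Hoxa2 (0.07 without control embryo 1), 0.05 to 0.15 for anterior Hoxb2 (0.15 without DKO embryo 3) and 0.16 to 0.28 for posterior Hoxb2, none past the threshold. Without control embryo 1 the 4 anterior differences were 0.00 for Hoxb1, -0.21 for Hoxd1, 0.05 for Hoxa2 and 0.12 for Hoxb2, and the posterior ones 0.20, 0.00, 0.07 and 0.20 in the same order, none past the threshold. The summed level of the neural tube markers was 493 to 634 CPM in anterior controls and 647 to 720 CPM in anterior DKO, without overlap, though 0 of the 8 markers passed the test singly (edgeR, lowest adjusted p = 0.0522, with 7 at an unadjusted p below 0.05). The somite and paraxial mesoderm markers separated the other way, with summed levels of 375 to 444 CPM in anterior controls against 266 to 355 CPM in anterior DKO, and 414 to 564 CPM against 227 to 413.5 CPM in posterior pieces. Again 0 of 8 passed singly in either region (lowest adjusted p = 0.120 and 0.270, edgeR), with 6 and 5 at an unadjusted p below 0.05. The hindbrain and brain list was also lower in DKO without overlap, at 16.6 to 20.1 against 11.3 to 15.4 CPM in anterior and 24.97 to 32.3 against 14.8 to 22.7 CPM in posterior pieces. Ectoderm markers were at 152 to 226 CPM in posterior controls and 236 to 299.7 CPM in posterior DKO. Neural crest markers had 5 of 6 at an unadjusted p below 0.05 in anterior pieces, with a median log2 difference of 0.32. Blood markers had 4 of 4 in posterior pieces, with a median of 0.56 (4 of 4 for the interaction, median 1.24, lowest adjusted p = 0.999). Gut endoderm markers had 2 of 6 in anterior (median 0.33) and 3 of 6 in posterior pieces (median 0.30), and neural tube markers 2 of 8 in posterior pieces (median 0.27). No marker of the 11 lists passed singly in either region after adjustment. The part of these shifts in the DKO values of the 4 Hox genes was not tested.

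The difference between the effects in the 2 regions was tested directly as an interaction. It was 0.23 on the log2 scale for Hoxb1 (95% interval -0.14 to 0.61), 0.24 for Hoxd1 (-0.23 to 0.71), 0.04 for Hoxa2 (-0.31 to 0.40) and 0.14 for Hoxb2 (-0.12 to 0.40), positive values meaning a higher effect posteriorly. None passed the threshold (edgeR, adjusted p = 0.999 for each). Leaving out each embryo in turn, the interaction of Hoxd1 ran from 0.01 without DKO embryo 3 to 0.41 without DKO embryo 2. That of Hoxb1 ran from 0.17 to 0.34 and that of Hoxb2 from 0.08 to 0.21. Without control embryo 1 the interaction was 0.20 for Hoxb1, 0.21 for Hoxd1, 0.02 for Hoxa2 and 0.08 for Hoxb2, none past the threshold. Of the 16428 genes tested, 0% passed after adjustment, 567 (3.45%) had an unadjusted p below 0.05, and DESeq2 called 10.

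The next genes of the clusters, the 7 genes of groups 3 and 4 (Hoxa3, Hoxb3, Hoxd3, Hoxa4, Hoxb4, Hoxc4 and Hoxd4), put the regional pattern in its setting. In controls 1 was higher posteriorly, 3 were lower and 3 did not pass, with a median log2 difference of -0.23. Hoxc4 was the higher one, at 0.50 (SE 0.113, 95% interval 0.25 to 0.74, edgeR, adjusted p = 0.0056), against 1.68 and 2.05 for Hoxb1 and Hoxd1. Hoxa4, Hoxd3 and Hoxb4 were lower, with differences of -1.19, -1.10 and -0.96. In DKO 1 was higher, 3 were lower and 3 did not pass, with Hoxc4 at 0.66, Hoxa4 at -0.75, Hoxd3 at -0.84 and Hoxb4 at -0.68. Along HoxB in controls, the sequence from the 3′ end was Hoxb1 at 1.68, Hoxb2 at -0.16, Hoxb3 at -0.23 and Hoxb4 at -0.96. Along HoxD it was Hoxd1 at 2.05, Hoxd3 at -1.10 and Hoxd4 at 0.02. No gene of groups 3 and 4 passed the test of DKO against control in either region (edgeR, lowest adjusted p = 0.316 and 0.451), and 1 of 7 in each region had an unadjusted p below 0.05.

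Of 17 genes of retinoic acid synthesis, degradation, binding and reception, 3 were higher and 7 lower posteriorly in controls, and 3 and 6 in DKO. Cyp26a1, which degrades retinoic acid, was higher by 3.68 in controls and 4.65 in DKO on the log2 scale, and Rarg, a retinoic acid receptor, by 1.87 and 2.16. Crabp1, which binds retinoic acid in the cytoplasm, was lower, at -2.17 and -2.32. None of the 16 anterior and 17 posterior retinoic acid genes tested passed in DKO against control (edgeR, lowest adjusted p = 0.0641 in anterior and 0.369 in posterior pieces), and 4 and 3 of them had an unadjusted p below 0.05. The lowest anterior adjusted p was that of Aldh1a2, which makes retinoic acid, with a log2 difference of -0.97 (95% interval -1.35 to -0.60). Next by adjusted p was Cyp26b1, which degrades it, at -1.03 (-1.43 to -0.62, adjusted p = 0.0659, edgeR). For both, the groups did not overlap, which held for 5.08% of all genes tested.

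The embryos ranged from 20 to 24 somites, and the genes were set against somite number with genotype in the model. By Xist and Y-linked levels, embryos with 20 to 22 somites were female and those with 23 or 24 male, control embryo 1 included. Somite number and sex were thus split the same way, so their parts in a slope cannot be fully told apart. In the posterior piece, the values of Hoxd1 were lower in embryos with more somites, but the slope did not pass the test. Hoxd1 had 33.0 and 34.3 CPM in the 2 embryos with 20 somites, 28.7 CPM at 21, 25.4 CPM at 22, 24.8 to 27.7 CPM in the 3 embryos at 23, and 19.3 and 20.3 CPM in the 2 at 24. Control and DKO embryos of the same somite number lay close together. The slope was -0.16 per somite on the log2 scale (SE 0.0324, 95% interval -0.23 to -0.09), with an unadjusted p of 0.000515 that did not pass over the 15936 genes (edgeR, adjusted p = 0.193), where 0.0126% passed and 6.42% had an unadjusted p below 0.05. DESeq2 called it at the same slope (adjusted p = 0.00109), as did edgeR without DKO embryo 4 (slope -0.17, adjusted p = 0.0497). Without DKO embryo 3 the adjusted p was 0.915 at a slope of -0.16 (edgeR). With the sex label also in the model, the slope was -0.19 and did not pass (edgeR, adjusted p = 0.773). Control embryo 1 kept its female label in that fit.

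The other 3 genes gave posterior slopes of -0.07 for Hoxb1 (95% interval -0.15 to 0.01), 0.01 for Hoxa2 (-0.08 to 0.09) and -0.01 for Hoxb2 (-0.09 to 0.06). Leaving out each embryo in turn, the slope of Hoxb1 ran from -0.11 to -0.02. The 8 axial bud markers all had negative slopes in the posterior piece (median -0.14, against 0.00 over all genes), 6 with an unadjusted p below 0.05 and 0 after adjustment (edgeR, lowest adjusted p = 0.116). Cdx4 had a slope of -0.28, Nkx1-2 of -0.21 and T of -0.16. The 8 somite and paraxial mesoderm markers all had positive slopes (median 0.18), 7 with an unadjusted p below 0.05 (edgeR). All slopes tested were also positive for neural tube (median 0.09), neural crest (0.13), blood (0.16), endothelium (0.11) and hindbrain and brain markers (0.07). None of these markers passed after adjustment. The part of the shares of axial bud and other tissues in the slope of Hoxd1 was not tested. In the anterior piece the slopes were -0.01 for Hoxb1, 0.04 for Hoxd1, 0.04 for Hoxa2 and 0.04 for Hoxb2. There 0.0328% of genes but none of these 4 passed (lowest adjusted p = 0.460, edgeR). The anterior slope of Hoxb2 ran from 0.01 to 0.07 leaving out each embryo in turn.

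**Figure D4:**
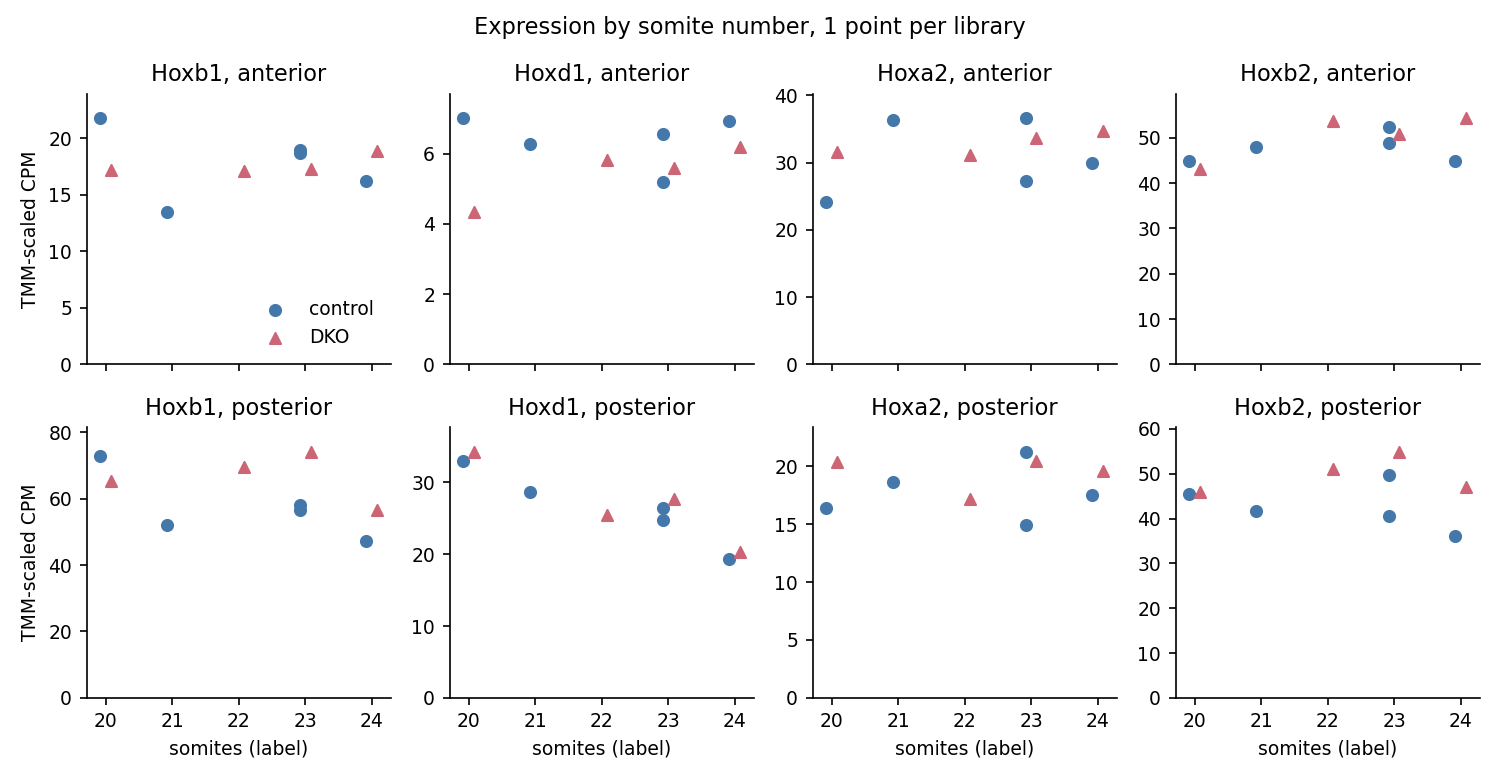
Expression (y axis, TMM-scaled CPM from 0) of the 4 Hox genes against the somite number of the embryo (x axis) in anterior (top) and posterior (bottom) pieces, with control libraries as blue circles and DKO libraries as red triangles, shifted slightly sideways. Posterior Hoxd1 lies at 33.0 and 34.3 CPM at 20 somites and at 19.3 and 20.3 CPM at 24.

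The likeness of whole profiles was measured as the root mean square difference of log2 CPM over the 18 libraries, after each gene was centred on its own mean, so that 0 is an identical profile. Of the 4 genes, Hoxb1 and Hoxd1 were 0.289 apart, and 34 of 11779 genes outside the Hox clusters lay nearer to Hoxb1 than that. Hoxa2 and Hoxb2 were 0.379 apart, and 2052 of the 11779 lay nearer to Hoxa2. The cluster neighbours Hoxb1 and Hoxb2 were 0.958 apart, and Hoxd1 and Hoxa2 were the farthest pair at 1.48. Among these 11779 genes, the nearest to Hoxb1 were Rftn1 (0.170), Capn1 (0.185) and Pcolce2 (0.193). Those nearest to Hoxd1 were Rspo3, a secreted activator of Wnt signalling (0.199), AW551984 (0.225) and Etv5, an ETS factor known as a target of FGF signalling (0.227). Rspo3 had 12.3 and 9.29 CPM in anterior controls and DKO and 47.7 and 52.7 CPM in posterior ones. The nearest to Hoxa2 were Arf2 (0.125), Mxra7 (0.125) and Tspan13 (0.150), and to Hoxb2 Tmem9 (0.094), Mrps24 (0.095) and Mpnd (0.098). All libraries enter every one of these values, which are descriptions.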

How the data were processed

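Per the labels' protocols, RNA was extracted with an RNeasy Micro kit and poly(A) libraries were read from a single end. The authors deposited RSEM expected counts per Ensembl gene, which are estimated counts not scaled between libraries. The submitters' processing notes name CASAVA, cutadapt, RSEM and GRCm38; the aligner, versions and strand setting are not given in the sources used here. Symbols, exons and overlaps were taken from GENCODE M21 (53360 of 53465 identifiers found).

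The expected counts were rounded to whole numbers and all genes were fitted with edgeR 4.0.16 (R 4.3.3): filterByExpr (minimum count 10, minimum total 15), TMM scaling, glmQLFit and glmQLFTest, and Benjamini-Hochberg adjustment over all genes tested, with a threshold of 0.05. The code was tested on simulated data. Log2 CPM used a prior count of 2. In each region the embryos were the replicates, and p-values of fits within a region measure the spread between them. The main fits between regions and of the interaction had no term for the embryo. Their SEs, intervals and p-values therefore treat pieces of an embryo as independent. Reads carry no molecular identifiers, so the floor of 3 counts covers counting error only.

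The labels pair the pieces through somite number, sex label and genotype. With group means subtracted, pieces of the same embryo correlated at 0.256 to 0.570 over 16428 genes (9 pairs) and pieces of other embryos of the genotype at -0.283 to 0.0916 (32 pairs).

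The 4 genes and all lists were chosen with earlier results of these data known. Of the lists, the 2 higher and 2 lower genes with the largest fold past the threshold in a comparison were to be named, and for each Hox gene the 3 nearest protein-coding profiles with a mean of at least 50 counts. Other list genes and the overlapping genes were named after their values were seen. Alternatives were RLE size factors, DESeq2 1.42.0, no filter, a mean of at least 50 counts, unrounded counts, covariates, all 18 libraries in 1 fit, the embryo as a block, leaving out each embryo, and, added after seeing the data, coding transcript lengths and the counts of overlapping genes added.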

Additional observations from a re-analysis of the deposited data

Results flagged for a closer look

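Hoxb1 in anterior DKO embryo 2 had 18.8 CPM, against 17.1 to 17.3 CPM in the other 3 anterior DKO libraries. Its gap to the nearest of them was 0.912 of the range of the group, above Dixon's 95% critical value for 4 samples. It was the only 1 of 16 groups (4 genes in 4 groups) with such a library, and chance alone gives about 1 in 20. Without it the group mean was 17.2 ± 0.0835 CPM (SD, n = 3) in place of 17.6 ± 0.830 CPM (n = 4), and the library lies inside the range of the anterior controls, 13.5 to 21.8 CPM.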

How the results depend on the processing

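Over 28 results for the 4 Hox genes and 408 alternatives, 384 kept direction and side of the threshold, none lost a call, 3 gained one and 21 changed sign, each of them an uncalled value near 0. The regional differences of Hoxb1, Hoxd1 and Hoxa2 kept their calls under every alternative run (Hoxb1 1.63 to 1.71 in controls and 1.84 to 2.02 in DKO, Hoxd1 1.99 to 2.16 and 2.06 to 2.46, Hoxa2 -0.85 to -0.75 and -0.79 to -0.72). The embryo as a replicate block changed no call for the 4 genes and moved no count of calls by over 1.5 times: 5136 genes passed in the region comparison of controls and 3004 in that of DKO. The 3 gains were Hoxb2 between regions in controls with overlapping genes added (-0.20) and the posterior somite slope of Hoxd1 with DESeq2 (-0.16) and without DKO embryo 4 (-0.17 to -0.14 over all embryos left out in turn).

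Counts of genes past the threshold moved more, and the cause was not tested. The covariates were sex label and somite number. All fits with the sex label kept control embryo 1 as female, which its Xist and Y-linked levels contradict. For DKO against control in anterior pieces they were 6 as reported, 296 with DESeq2, 83 with no filter, 88 with covariates, 19 with all 18 libraries in 1 fit and 1 to 57 leaving out each embryo in turn (57 without DKO embryo 2). In posterior pieces they were 2, then 161 with DESeq2, 14 with no filter, 1 with the stricter filter, 51 with all 18 libraries and 2 to 24 leaving out each embryo (24 without DKO embryo 2). The interaction gave 10 with DESeq2 and 0 to 1 leaving out each embryo. The region comparison in DKO gave 1728 to 2550 (1728 without DKO embryo 1). Somite number gave, in anterior pieces, 5 as reported, 352 with DESeq2, 162 with no filter, 9 with the stricter filter, 0 with genotype and sex label and 0 to 134 leaving out each embryo (134 without control embryo 4). In posterior pieces it gave 2, then 141, 29 with no filter, 0 with genotype and sex label and 0 to 29 leaving out each embryo (29 without DKO embryo 4).

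Signs turned as follows. With overlapping genes added, Hoxb2 was -0.01 for DKO against control in anterior pieces and 0.03 between regions in DKO. With genotype and sex label, the somite slope of Hoxa2 was -0.01 in anterior and -0.10 in posterior pieces. Leaving out each embryo gave, for DKO against control, -0.11 to 0.06 for anterior Hoxb1 and -0.11 to 0.14 for posterior Hoxd1, -0.00 to 0.09 for the interaction of Hoxa2, and -0.08 to 0.04 for Hoxb2 between regions in DKO. It gave anterior somite slopes of -0.03 to 0.06 for Hoxb1, -0.01 to 0.09 for Hoxd1 and -0.01 to 0.07 for Hoxa2, and posterior ones of -0.01 to 0.03 for Hoxa2 and -0.04 to 0.02 for Hoxb2. The order of levels per kb held in 3 of 4 groups with the longest transcript and in 0 with the coding transcript, where Hoxb2 has the shorter length.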
